A study of Mus musculus with 7 samples.

Results

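The genes described here are 7 myeloid genes that encode C-type lectins and other pattern receptors or effectors: Clec4d, Clec4e, Clec4a2, Cd300lb, Cd14, Mrc1 and Mpeg1. They were chosen by symbol, with their ABCG2 and mock values known, and are represented by the probe sets annotated to exactly 1 of these symbols. That gave 8 probe sets of 7 genes, of 8378 genes with a single-symbol probe set in all, because Clec4e has 2 probe sets. All 8 had passed the authors' filter, which kept probe sets detected on all 7 arrays. Of these genes, Clec4d, Clec4e, Clec4a2, Cd300lb, Cd14 and Mpeg1, lay far lower on the ABCG2 arrays than on the mock arrays, and Mrc1 did not. In sorted EZH2-Mt marrow, Mpeg1, Cd14 and Cd300lb were lower than in mock marrow by 1.05 to 1.44 log2.

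The arrays measured RNA of bone marrow cells (BMCs) from recipient mice of bone marrow transplants (BMT). Unsorted marrow came from recipients of cells with a mock transgene (3 arrays) or an ABCG2 transgene (2 arrays). Marrow of MDS-like recipients with the EZH2-Mt transgene had been sorted on GFP into a GFP-negative and a GFP-positive fraction (1 array each). Strain, age, sex, the promoter of the transgenes, the donor cells and what GFP marks are not given in the sources used here, and neither is whether both EZH2-Mt fractions came from the same mouse. Each array is labelled as a recipient mouse, with no animal number. ABCG2 is a drug efflux transporter, and EZH2 is the methyltransferase of Polycomb repressive complex 2. Every group consists of transplanted animals, so no array shows marrow without a transplant.

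C-type lectin receptors of myeloid cells bind sugars and lipids of microbes and of damaged cells. Clec4d (MCL) and Clec4e (Mincle) are activating receptors that lack a signalling tail of their own and act through the adaptor encoded by Fcer1g, the kinase Syk and Card9. Clec4a2 (DCIR) carries an inhibitory motif in its tail. Cd300lb encodes an activating receptor of the CD300 immunoglobulin family, Cd14 the coreceptor that hands endotoxin to Toll-like receptor 4, Mrc1 the mannose receptor of macrophages, and Mpeg1 perforin-2, a pore-forming protein of phagocytes. In marrow these genes are known from neutrophils, monocytes, macrophages and their precursors.

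Clec4a2, Clec4d and Clec4e belong to 1 lectin cluster. By RefSeq (GRCm38.p6), protein-coding genes follow each other on chromosome 6 in the order Clec4a2, Clec4b2, Clec4n, Clec4d, Clec4e. Of these, Clec4n differed by only -1.21 log2 between ABCG2 and mock arrays. The 250 bases before the annotated start of Clec4a2, Clec4d and Clec4e are shown because all 3 were far lower on the ABCG2 arrays. Those of Mrc1, on chromosome 2, are shown because it was not lower there. They are RefSeq sequences of build GRCm38.p6, written 5′ to 3′ on the strand of the gene: chr6:123261857-123262106 (plus strand) for Clec4d, chr6:123289872-123290121 (minus strand) for Clec4e, chr6:123122440-123122689 (plus strand) for Clec4a2 and chr2:14229164-14229413 (plus strand) for Mrc1. Capitals mark matches to the motif cores described after them.
Clec4d: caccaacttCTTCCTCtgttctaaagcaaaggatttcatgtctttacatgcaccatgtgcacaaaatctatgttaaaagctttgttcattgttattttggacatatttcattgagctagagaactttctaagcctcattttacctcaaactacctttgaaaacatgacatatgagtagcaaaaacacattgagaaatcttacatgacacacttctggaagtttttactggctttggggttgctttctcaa
Clec4e: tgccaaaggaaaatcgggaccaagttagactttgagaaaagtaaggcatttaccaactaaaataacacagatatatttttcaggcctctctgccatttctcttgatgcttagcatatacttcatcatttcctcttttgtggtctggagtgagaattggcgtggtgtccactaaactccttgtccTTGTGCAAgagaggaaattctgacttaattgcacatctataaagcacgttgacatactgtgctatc
Clec4a2: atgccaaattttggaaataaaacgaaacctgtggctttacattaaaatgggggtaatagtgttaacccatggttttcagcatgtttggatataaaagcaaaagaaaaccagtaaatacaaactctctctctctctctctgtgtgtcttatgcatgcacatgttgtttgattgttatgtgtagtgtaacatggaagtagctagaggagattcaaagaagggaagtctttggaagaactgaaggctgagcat
Mrc1: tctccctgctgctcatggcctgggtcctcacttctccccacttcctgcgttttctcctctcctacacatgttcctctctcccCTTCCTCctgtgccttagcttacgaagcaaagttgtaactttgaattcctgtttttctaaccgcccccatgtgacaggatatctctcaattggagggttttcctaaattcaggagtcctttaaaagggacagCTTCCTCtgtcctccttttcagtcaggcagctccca

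Promoters of 6 of the 7 members were matched by symbol. The cores searched on both strands were GAGGAAG for PU.1, TTGCNNAA for C/EBP and TGANTCA for AP-1, none of which overlapped another in these windows. PU.1 and C/EBP are transcription factors of myeloid development, and AP-1 is a factor of activated cells. The PU.1 core stood in 2 of the 6, Clec4d (-241 to -235 from the start, minus strand) and Mrc1 (-168 to -162 and -36 to -30, minus strand), against 10.6% of 32851 promoter windows of the same length. The C/EBP core stood in 1, Clec4e (-66 to -59, minus strand), against 9.56%. The AP-1 core was found in 0 of the 6, against 6.75% of windows. Clec4a2, Cd300lb and Mpeg1 held none of the 3 cores in this window.

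All values below are centred log2 signals: the authors' values of each probe set have a median of 0 over the 7 arrays, so a value is a distance from that median and shows nothing of the level of 1 gene against another. Folds assume base 2, which the sources do not state. Some properties of the arrays differ with the groups. The SD over 16255 probe sets was 0.335 to 0.42 on mock, 0.408 on GFP-negative, 0.54 on GFP-positive, and 1.06 and 1.13 on ABCG2 arrays. Spiked bioB control probe sets lay from -3.46 to -2.87 and from -4.07 to -3.03 on the ABCG2 arrays. The 12 bioC, bioD and cre probe sets lay from -0.625 to 0 and from -0.761 to -0.165 there, and the 24 dap, lys, phe and thr probe sets from -1.76 to -0.453 and from -2.6 to -0.695. On the GFP-negative array the first 16 of these spikes ran from 0.609 to 1.15 and the other 24 from 1.31 to 2.8. On the GFP-positive array they ran from 1.66 to 2.74 and from 2.48 to 4.58, and on the mock arrays from -0.48 to 0.201 and from -0.963 to 0.258. The 3′ minus 5′ difference of the β-actin controls was 0.399 and 0.419 on ABCG2 arrays, 0.14 on GFP-negative, 0.31 on GFP-positive and -0.0505 to 0.0355 on mock arrays. That of the Gapdh controls was -0.078 and -0.111 on ABCG2, 0.0905 on GFP-negative, 0.349 on GFP-positive and -0.0797 to 0.0999 on mock arrays. The part of these properties in the results below was not tested. The ABCG2 titles carry a series tag that other titles lack, so if it marks a batch, batch and transgene cannot be told apart.

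Clec4d (probe set 1420804_s_at) had values of 0.55, 0.42 and 0.61 on the mock arrays, 0 in GFP-negative and -0.58 in GFP-positive EZH2-Mt marrow, and -4.82 and -6.52 in ABCG2 marrow. The 3 groups did not overlap: mock was highest, EZH2-Mt between, and both ABCG2 arrays far below. Its ABCG2 minus mock difference was -6.20 ± 0.45 log2 (limma standard error, n = 2 and 3), or 73.5-fold lower. The size of this difference and of those below depends on the scaling of the arrays. Quantile normalization gave -3.84 log2 for Clec4d. In bulk marrow, fewer cells of a type and less RNA per cell cannot be told apart. This difference and those of the other members from the same contrast are a description with no test, since the members were chosen with it known. The suffix of this probe set marks probes that can match more than 1 transcript.

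Clec4e was measured by both of its probe sets. Probe set 1420330_at read 0.39, 0.80 and 0.66 in mock, 0 and -0.67 in the GFP-negative and GFP-positive fractions, and -4.50 and -5.81 in ABCG2 marrow. Probe set 1420331_at read 0.02, 0.46 and 0.09 in mock, 0 and -0.86 in the fractions, and -4.88 and -6.06 in ABCG2 marrow. Both probe sets put the ABCG2 arrays far below the rest, and in both the GFP-positive fraction lay below the GFP-negative one. ABCG2 minus mock was -5.77 ± 0.37 and -5.66 ± 0.35 log2 (54.7-fold and 50.6-fold lower), so the probe sets differed by less than either standard error.

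Clec4a2, the inhibitory lectin, behaved alike in ABCG2 marrow but not in EZH2-Mt marrow. Values of 1422013_at were -0.12, 0 and 0.21 in mock, 0.20 in GFP-negative, 0.11 in GFP-positive, and -5.77 and -7.26 in ABCG2 marrow. Mock and EZH2-Mt arrays overlapped, and only the ABCG2 arrays stood apart. The ABCG2 minus mock difference was -6.54 ± 0.41 log2, 93.3-fold lower.

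Cd300lb (1445882_at) showed the largest distance. It read 1.05, 0.94 and 0.76 in mock, 0 and -0.28 in the GFP-negative and GFP-positive fractions, and -5.23 and -6.67 in ABCG2 marrow, with no overlap between the 3 groups. ABCG2 minus mock was -6.86 ± 0.40 log2 (116-fold lower), the difference at rank 2 from the bottom of 16255 probe sets. After quantile normalization the difference was -4.65 log2. Cd14 (1417268_at) read 0.70, 1.12 and 0.90 in mock, 0 and -0.30 in the fractions, and -4.54 and -5.74 in ABCG2 marrow. Its groups did not overlap either, and ABCG2 minus mock was -6.05 ± 0.35 log2, 66.1-fold lower.

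Mpeg1, which encodes the pore-forming effector, had the smallest standard error of the members. Probe set 1427076_at read 1.48, 1.30 and 1.52 in mock, -0.01 in GFP-negative, 0 in GFP-positive, and -3.16 and -2.69 in ABCG2 marrow. The EZH2-Mt arrays lay between the other groups, nearer to mock. The ABCG2 minus mock difference of -4.36 ± 0.19 log2 (20.5-fold lower) was the smallest among the 6 lower genes. Quantile normalization put it at -3.59 log2, and Clec4e 1420331_at at -3.20.

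Mrc1, the mannose receptor, stood apart from the other members. Probe set 1450430_at read -1.17, 0.07 and -0.11 in mock, -1.33 in GFP-negative, 0.19 in GFP-positive, and 0 and 1.11 in ABCG2 marrow. All groups overlapped, and 1 mock array and the GFP-negative fraction held the lowest values. Its ABCG2 minus mock difference was 0.96 ± 0.46 log2, against a spread of 1.24 between the mock arrays. The label of myeloid pattern receptors thus covers 6 genes that were low on both ABCG2 arrays and Mrc1, which was not.

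**Figure D1:**
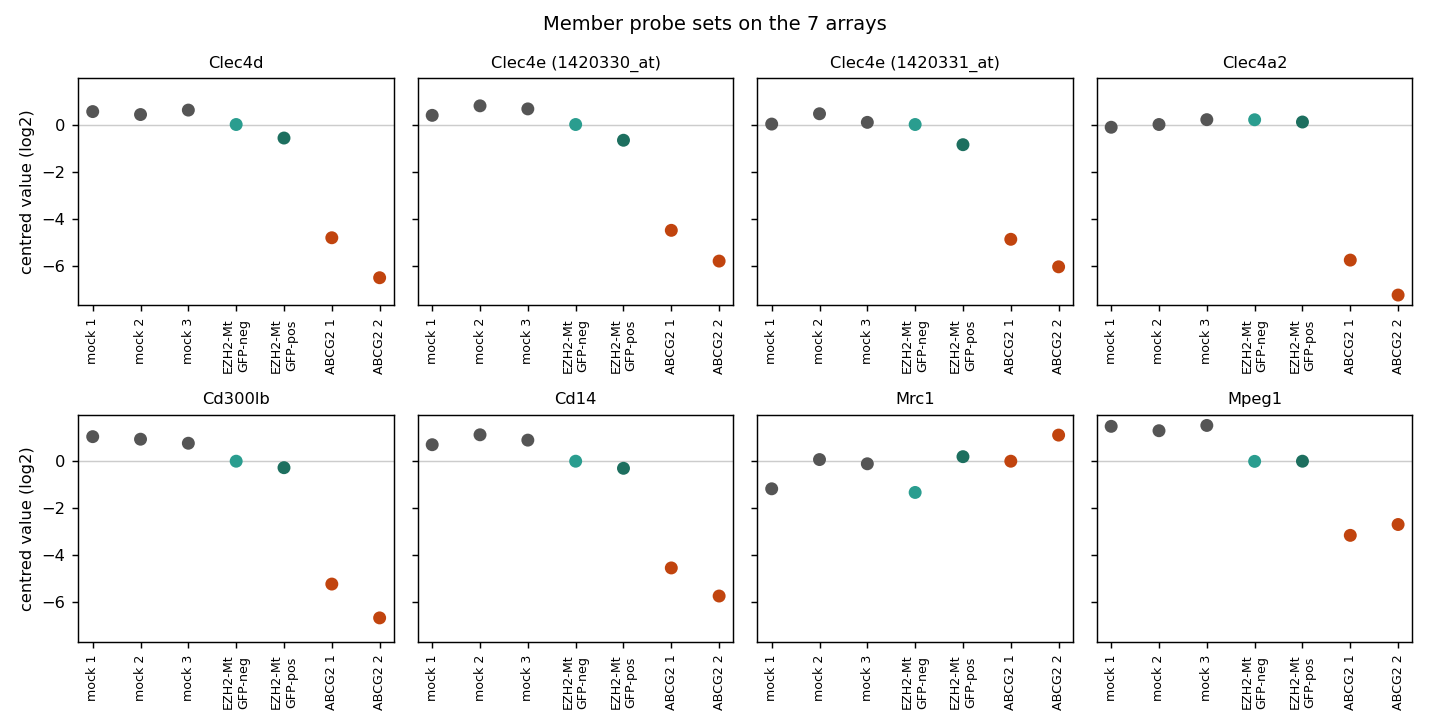
Centred log2 value (vertical axis) of each of the 8 member probe sets on the 7 arrays (horizontal axis); each point is 1 array, grey for mock, green for the EZH2-Mt fractions and orange for ABCG2. In 7 of 8 panels both ABCG2 points lie below every other point, while in the Mrc1 panel the groups overlap.

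Counted over probe sets, 7 of 8 had both ABCG2 arrays below all mock arrays and below both EZH2-Mt fractions. Over all 16255 probe sets those shares were 32.6% and 37.6%. In limma's fit, 7 of 8 were called lower in ABCG2 marrow (25.3% of all probe sets were, and 31.5% higher). Members were chosen on this contrast, so nothing is read from these counts, or from the counts and the median that follow. A difference of -4 log2 or lower was seen in 7 of 8 and in 1.11% of all, and one of -6 log2 or lower in 4 of 8 and in 0.148% of all. The member median was -5.91 log2, against 0.11 over all probe sets, and it was -3.72 after quantile normalization. The 7 lower probe sets then ran from -4.65 (Cd300lb) to -3.20 (Clec4e, 1420331_at).

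The 2 ABCG2 arrays themselves differed. In 6 of the 8 probe sets replicate 2 lay below replicate 1, each time by 1 log2 or more, from 1.17 (Clec4e, 1420331_at) to 1.70 (Clec4d), and 3.31% of all probe sets did so. Mpeg1 and Mrc1 were higher on replicate 2, by 0.46 and 1.11 log2. Mean values of maturing and mature neutrophil markers were also lower on replicate 2 (-3.43 on replicate 1 and -5.28 on replicate 2). So were those of primary granule markers (-5.80 and -6.74) and of basophil, mast cell and eosinophil markers (-3.32 and -4.61). The mean of monocyte and macrophage markers was level (-2.17 and -2.08), but its probe sets moved both ways. Csf1r read -3.16 and -1.92, and Adgre1 -0.19 and -1.67. Properties of the 2 arrays differed as well. The dap, lys, phe and thr spikes ran from -1.76 to -0.453 on replicate 1 and from -2.6 to -0.695 on replicate 2. The bioB spikes went both ways. The SD over all probe sets was 1.06 and 1.13. The parts of cell composition and of these array properties in the difference between the replicates were not tested.

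Sorted EZH2-Mt marrow was compared with mock marrow in a separate limma fit. It took both fractions as 1 group (n = 2) against mock (n = 3). They are different fractions, perhaps of 1 mouse, and not replicates of 1 condition, so the spread of the group holds the difference between them. Only EZH2-Mt marrow was sorted, so sorting and transgene cannot be told apart in this contrast. The members were chosen with the ABCG2 minus mock contrast known, and the EZH2-Mt contrast shares its mock arrays. Such a choice can favour genes high on those mock arrays, so the counts and p-values below are no independent evidence of a fall. Of the 8 member probe sets, 3 were lower past an adjusted p of 0.05 and 0 were higher, where 3.62% of all probe sets were lower and 5.79% higher. At an unadjusted p under 0.05, 5 of 8 were lower (12% of all) and 0 higher. Mpeg1 fell by 1.44 ± 0.16 log2 (2.71-fold, adjusted p = 0.00810). Cd14 fell by 1.06 ± 0.20 (2.08-fold, adjusted p = 0.0262) and Cd300lb fell by 1.05 ± 0.18 (adjusted p = 0.0210). In each of them both EZH2-Mt arrays lay below every mock array. Such a lack of overlap, with EZH2-Mt lower, was seen in 6 of 8 member probe sets and 20.7% of all. The median difference of the 8 was -0.88 log2, against 0.06 over all probe sets.

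The count became 1 without GFP-positive EZH2-Mt, without mock replicate 2, without mock replicate 3 or with all 7 arrays in 1 fit, 2 without mock replicate 1, 4 with probe sets averaged per gene, 5 with quantile normalization and 6 without GFP-negative EZH2-Mt. Of the member calls, only that of Mpeg1 held under each of 10 alternative settings (adjusted p from 0.00388 to 0.0478). Cd14 passed in 6 of 10 and missed the threshold without GFP-positive EZH2-Mt, without mock replicate 2, without mock replicate 3 and with all 7 arrays in 1 fit (adjusted p over the alternatives from 0.0154 to 0.0965). Cd300lb passed in 5 of 10 and missed it without GFP-positive EZH2-Mt, without any 1 of the 3 mock replicates and with all 7 arrays in 1 fit (adjusted p from 0.00917 to 0.111).

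The activating lectins did not pass. Clec4d differed by -0.82 ± 0.21 log2 (adjusted p = 0.0560), and Clec4e by -0.95 ± 0.24 (1420330_at, adjusted p = 0.0549) and -0.62 ± 0.28 (1420331_at, adjusted p = 0.190). With 1 fraction left out, in a fit that assumes the lone array to vary as the mock arrays do, the fractions gave different values. Without GFP-negative EZH2-Mt these 3 probe sets passed, at -1.10, -1.29 and -1.05 log2 with adjusted p of 0.0189, 0.0199 and 0.0350. Without GFP-positive EZH2-Mt none passed, at -0.53, -0.62 and -0.19 log2 with adjusted p of 0.161, 0.168 and 0.664. With probe sets averaged per gene, Clec4d had an adjusted p of 0.0464 and Clec4e of 0.0873. Clec4a2 differed by 0.12 ± 0.17 log2 (adjusted p = 0.659) and Mrc1 by -0.16 ± 0.52 (adjusted p = 0.858).

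**Figure D2:**
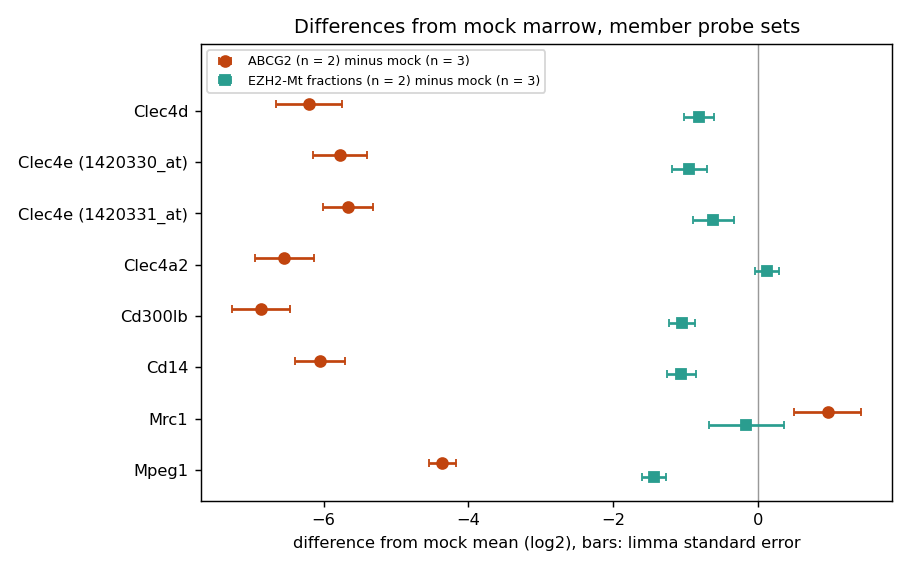
Difference from the mock mean in log2 (horizontal axis) for the 8 member probe sets (vertical axis), orange circles for ABCG2 (n = 2) and green squares for the EZH2-Mt fractions (n = 2), each against 3 mock arrays; bars are limma standard errors. ABCG2 differences run from -6.86 to -4.36 log2 in 7 probe sets and EZH2-Mt differences from -1.44 to 0.12 in all 8.

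The fractions hold 1 array each, so what separates them has no replicate check. Against the mock mean, GFP-positive marrow was lower by 1 log2 or more in 6 of 8 member probe sets, with values of -1.05 to -1.43, and GFP-negative marrow in 1 of 8, Mpeg1 at -1.44. Over all probe sets the shares were 4.2% and 2.34%. GFP-positive lay below GFP-negative in 6 of 8 (47.8% of all probe sets), but by less than 1 log2 in each, with Clec4e 1420331_at the farthest apart at -0.86. Mpeg1 was level in the fractions (difference 0.01). A gap of 1 log2 or more between the fractions was seen in 1 of 8, in Mrc1, which was higher in GFP-positive marrow by 1.52 log2, and in 5.13% of all probe sets. Mrc1 values of the mock arrays alone spanned 1.24 log2.

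Marker lists of myeloid cells gave the setting of these values. In ABCG2 marrow 15 of 15 probe sets of maturing and mature neutrophils fell (limma, adjusted p under 0.05), as did 4 of 4 of primary granules (Mpo, Ctsg, Prtn3 and Ms4a3) and 13 of 14 of monocytes and macrophages (not C1qb, at 0.79), with medians of -4.65, -6.19 and -3.36 log2. In EZH2-Mt marrow 0 of the 15 neutrophil probe sets and 0 of the 4 granule probe sets passed limma's test in either direction (9 and 3 at an unadjusted p under 0.05), with medians of 0.71 and 0.72 log2. Monocyte and macrophage probe sets fell in 8 of 14 there, with a median of -1.27 log2. In this list, the chemokine receptor gene Ccr2 of inflammatory monocytes differed by -1.84 to -2.09 log2 over 3 probe sets (2 passed). The transcription factor gene Irf8 differed by -1.95. Lyz2 (0.73), Slc40a1 (0.21), C1qb (-0.08) and both Vcam1 probe sets (-0.25 and -0.22) of the same list did not pass, so the list did not fall throughout. Of the fixed markers, 15 of 20 neutrophil, 4 of 6 granule and 10 of 16 monocyte genes had a probe set in the values used here. Lists of other marrow cells were followed as well. In ABCG2 marrow, basophil, mast cell and eosinophil markers fell in 3 of 4 (Mcpt8, Epx and Prg2, with Cpa3 higher; median -5.25 log2) and T and NK cell markers rose in 3 of 5 (median 2.51). B lineage markers rose in 4 of 14 and fell in 2, and erythroid markers rose in 2 of 8 and fell in 2. Dendritic cell and MHC class II markers rose in 6 of 17 and fell in 3. Over all probe sets 31.5% rose and 25.3% fell, so the shares of these 3 lists were near or below those of all probe sets. In EZH2-Mt marrow the erythroid median was 1.36 (1 of 8 rose, Ank1 at 2.18), the T and NK cell median 1.59 (1 of 5 rose, Klrd1 at 3.53), the B lineage median 0.54 (1 of 14 rose, Cd22 at 2.25), the basophil list median 0.66 (1 of 4 rose, Mcpt8 at 1.19) and the dendritic cell list median -0.54 (1 of 17 fell, H2-DMa at -1.14). Over all probe sets 5.79% rose and 3.62% fell in EZH2-Mt marrow, so 1 call in a list shows no movement of that list. The part of cell composition in the members' differences was not tested.

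**Figure D3:**
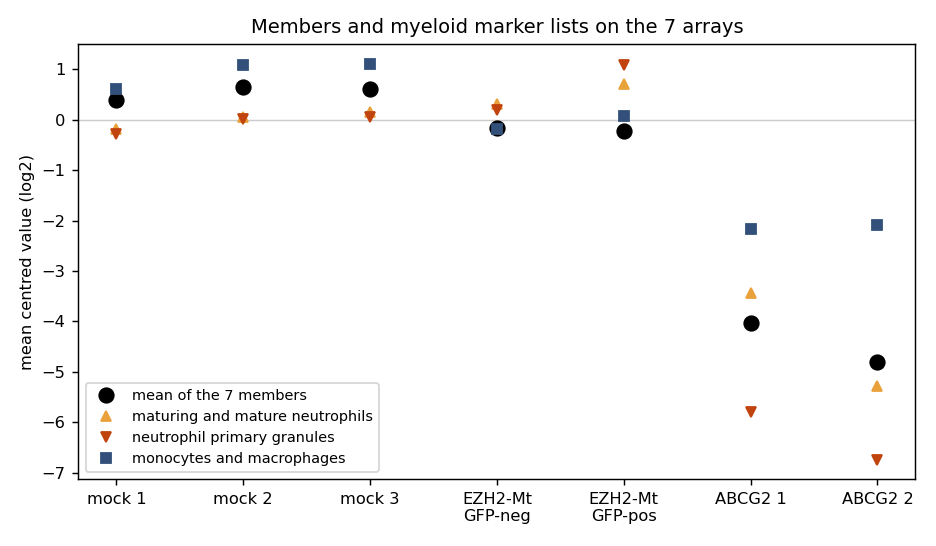
Mean centred log2 value (vertical axis) on each of the 7 arrays (horizontal axis) of the 7 members (black circles), maturing and mature neutrophil markers (yellow triangles), primary granule markers (red triangles) and monocyte and macrophage markers (blue squares). On the ABCG2 arrays the member mean is -4.03 and -4.81. On the EZH2-Mt arrays it is -0.16 and -0.23, where the neutrophil markers are at 0.32 and 0.71. The member mean includes Mrc1, which is at 0 and 1.11 on the ABCG2 arrays, -1.33 in GFP-negative and 0.19 in GFP-positive marrow.

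Genes with the profile most like the members' were found by root mean square (RMS) difference over the 7 arrays. The search was among the 8378 genes with the members themselves left out. The mean of the 7 members includes Mrc1, which lay 2.31 to 3.91 log2 (RMS) from each other member. That mean is therefore not the profile of the members other than Mrc1. Nearest to the mean of the 7 members were Pilrb1 (RMS 0.125 log2), which encodes an activating paired receptor, the trafficking GTPase gene Rab32 (0.240), the guanine deaminase gene Gda (0.264), the glutaredoxin gene Glrx (0.265) and Pilra (0.285), the inhibitory partner of Pilrb1. Closest to single members, again among non-members, were the chemokine receptor gene Ccr1 for Clec4d (0.189), Fgd4 for Clec4e (0.218), the neutrophil collagenase gene Mmp8 for Clec4a2 (0.179), Mgst1 for Cd300lb (0.394), the chemokine gene Ccl6 for Cd14 (0.269) and the Toll-like receptor gene Tlr2 for Mpeg1 (0.276). Mrc1 was nearest to Ovca2 (0.311). Among the members, Clec4d and Clec4e were the closest pair (0.296), and Clec4a2 and Mrc1 the farthest apart (3.91).

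The wider pathway was followed in 6 lists that leave out the members: C-type lectins, lectin signalling, CD300 and related immunoglobulin receptors, the Toll-like receptor system, cytosolic pattern receptors, and scavenger and Fc receptors. They held 127 probe sets of 85 measured genes, of 181 listed. In ABCG2 marrow 79 (62.2%) fell and 16 (12.6%) rose, against 25.3% and 31.5% of all probe sets. Quantile normalization kept the direction and call of each of the 24 genes named below for this contrast, but shrank their log2 differences to between 49.9% and 99.6% of the values given (median 60.1%), in 16 of them by over 1.5 times. In EZH2-Mt marrow 18 (14.2%) fell and 3 rose, against 3.62% and 5.79%. Those 21 calls became 12 without GFP-positive EZH2-Mt, 9 without mock replicate 1, 5 without mock replicate 2, 4 without mock replicate 3 and 11 with array weights. The lists were drawn up with results of these samples known, so their counts are no independent evidence of a direction.

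Other C-type lectins moved in both directions. Of 12 probe sets of 10 genes, 6 (50%) fell and 4 (33.3%) rose in ABCG2 marrow, with a median of -0.66 log2. Over all probe sets 25.3% fell and 31.5% rose, so the share that rose was near that of all probe sets. Falls were seen in the β-glucan receptor gene Clec7a (dectin-1, -5.74 ± 0.16, adjusted p = 1.76e-05), in Clec4a3 (-3.97 ± 0.46, adjusted p = 0.000719) and in Ly75, which encodes DEC-205 of dendritic cells (-2.98 ± 0.31, adjusted p = 0.000477). Clec2i, which encodes a ligand of an NK cell receptor, rose by 3.96 ± 0.17 (adjusted p = 2.59e-05) and by 2.12 in its other probe set. The other rises were in the lymphocyte genes Cd69 (2.92) and Cd72 (0.90). In EZH2-Mt marrow 7 of the 12 fell and 0 rose, with a median of -1.06 log2 (8 of 12 had an unadjusted p under 0.05). Values there were -1.93 ± 0.19 for Clec4n (adjusted p = 0.00665) and -1.56 ± 0.17 for Clec7a (adjusted p = 0.00795), and both calls held under all 10 alternatives. The other falls were in Clec4a3 (-1.46), Selp (-1.07), Cd302 (-1.05) and both probe sets of Cd93 (-1.15 and -1.48).

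Clec4n, the dectin-2 gene, lies in the order of genes between Clec4a2 and Clec4d and had a pattern of its own. It read 0.97, 0.64 and 0.59 in mock, -1.11 and -1.29 in the GFP-negative and GFP-positive fractions, and -0.95 and 0 in ABCG2 marrow. The EZH2-Mt fractions were the lowest arrays, unlike in Clec4a2 and Clec4d. Its ABCG2 minus mock difference was -1.21 ± 0.29 log2 (limma, adjusted p = 0.0129), beside -6.54 for Clec4a2 and -6.20 for Clec4d. Its EZH2-Mt minus mock difference of -1.93 stood beside 0.12 for Clec4a2 and -0.82 for Clec4d. Whether the genes differ from each other was not tested. Like Clec4d, it was measured by a probe set whose suffix allows more than 1 transcript.

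Lectin signalling genes were next. Of 32 probe sets of 16 lectin signalling genes, 18 fell and 2 rose in ABCG2 marrow (median -0.98 log2). Those that fell included the Src family kinase gene Fgr (-3.86 ± 0.19, adjusted p = 3.56e-05), the adaptor genes Tyrobp (-2.56 ± 0.17, adjusted p = 8.73e-05) and Fcer1g (-1.97 ± 0.13, adjusted p = 9.76e-05), and the kinase gene Prkcd (-1.93 ± 0.14, adjusted p = 0.000139). All 3 Syk probe sets fell, with differences from -1.50 to -1.14 log2. The rises were in Ptpn11 (0.88) and 1 probe set of Nfatc1 (0.74), of which another fell (-0.64) and the remaining ones, at 0.18 and 0.52, did not pass. In EZH2-Mt marrow 2 of 32 fell, in Fgr (-0.82 ± 0.17, adjusted p = 0.0325) and Bcl10 (-0.76 ± 0.18, adjusted p = 0.0435), and each of these calls held in 4 of 10 alternatives. A second Fgr probe set gave 0.10 there and the other 3 Bcl10 probe sets -0.59, -0.48 and -0.01, none past the threshold.

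All measured immunoglobulin-type receptors fell in ABCG2 marrow, in 13 of 13 probe sets of 10 genes, with a median of -3.63 log2. The list names 27 genes, and the others had no probe set in the values used here. The farthest down were Trem3 (-5.86 ± 0.39, adjusted p = 9.76e-05), Pilra (-5.10 ± 0.19, adjusted p = 1.93e-05), the inhibitory receptor gene Pirb (-5.09 ± 0.24, adjusted p = 3.10e-05) and Pilrb1 (-4.97 ± 0.24, adjusted p = 3.70e-05). In EZH2-Mt marrow 1 of 13 fell, Cd300c2 at -1.19 ± 0.17 (adjusted p = 0.0148), and that call was lost without mock replicate 2 (adjusted p = 0.0643) or 3 (0.0663). Its relative Cd300lf differed by 0.11 there (adjusted p = 0.762) and by -4.44 in ABCG2 marrow (adjusted p = 0.000290).

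In the Toll-like receptor system 16 of 34 probe sets fell and 3 rose in ABCG2 marrow (median -0.49 log2). Falls were largest in Tlr13, a sensor of bacterial ribosomal RNA (-5.55 ± 0.18), and Tlr2 (-4.84 ± 0.15), both with an adjusted p of 1.77e-05. Irak3, an inhibitor of the pathway, followed at -4.30 ± 0.17 (adjusted p = 2.07e-05) and the adaptor gene Tirap at -2.86 ± 0.18 (adjusted p = 8.40e-05). The rises were in Sigirr (2.17), 1 probe set of Irak1 (0.75) and Tab1 (0.61). The other Irak1 probe sets, at -0.03, 0.25 and 0.15, did not pass. In EZH2-Mt marrow 3 fell, Ly86, Tlr2 and Tlr13 (-1.21), and Sigirr rose (0.78). Ly86, which encodes the MD-1 partner of Cd180, fell by 2.26 ± 0.17 (adjusted p = 0.00505), with -2.14 and -2.40 in the fractions, -0.08 to 0.07 in mock, and 0.18 and 0.57 in ABCG2 marrow. Tlr2 fell by 1.56 ± 0.17 (adjusted p = 0.00795). The Ly86 and Tlr2 calls held under all 10 alternatives.

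Of 19 probe sets of cytosolic receptors, 10 (52.6%) were lower and 6 (31.6%) higher in ABCG2 marrow (median -0.70 log2). Over all probe sets the shares were 25.3% and 31.5%, so the share that rose was near that of all probe sets. Genes of inflammasome sensors fell, Naip2 at -4.90 ± 0.15 (adjusted p = 1.77e-05) and Naip6 at -3.56 ± 0.16 (adjusted p = 2.85e-05). Nlrc3, at 5.01 ± 0.43 (adjusted p = 0.000227), and Nlrc5, at 3.24 ± 0.14 (adjusted p = 2.74e-05), rose. In EZH2-Mt marrow 3 fell, Dhx58, Ifih1 (-0.82) and Pycard (-0.71), and 2 rose, Nlrc3 and Naip6 (0.73). Nlrc3 rose by 2.69 ± 0.46 (adjusted p = 0.0213, and 0.0631 without mock replicate 3), and Dhx58 fell by 0.85 ± 0.20 (adjusted p = 0.0463, passed in 4 of 10 alternatives).

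Scavenger, Fc, complement and formyl peptide receptors fell in 16 of 17 probe sets in ABCG2 marrow (median -3.85 log2). Leading the falls were the formyl peptide receptor gene Fpr2 (-5.33 ± 0.37, adjusted p = 0.000108), the complement receptor gene C5ar1 (-4.88 ± 0.25, adjusted p = 4.40e-05), and the Fc receptor genes Fcgr4 (-4.61 ± 0.20, adjusted p = 2.74e-05) and Fcgr2b (-4.17 ± 0.16, adjusted p = 1.93e-05). The 1 that rose was a probe set of Scarb2 (0.52), whose other probe set fell (-1.08). In EZH2-Mt marrow 2 of 17 fell, Cd68 at -1.34 ± 0.19 (adjusted p = 0.0144) and Scarb2 at -0.66 ± 0.16 (adjusted p = 0.0456). The Cd68 call was lost without mock replicate 2 (adjusted p = 0.0618) or 3 (0.0607), and the Scarb2 call held in 3 of 10 alternatives. The same probe sets of Fpr2, C5ar1, Fcgr4 and Fcgr2b differed by 0.05, -0.08, -0.44 and 0.02 log2 in EZH2-Mt marrow, none past the threshold.

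**Figure D4:**
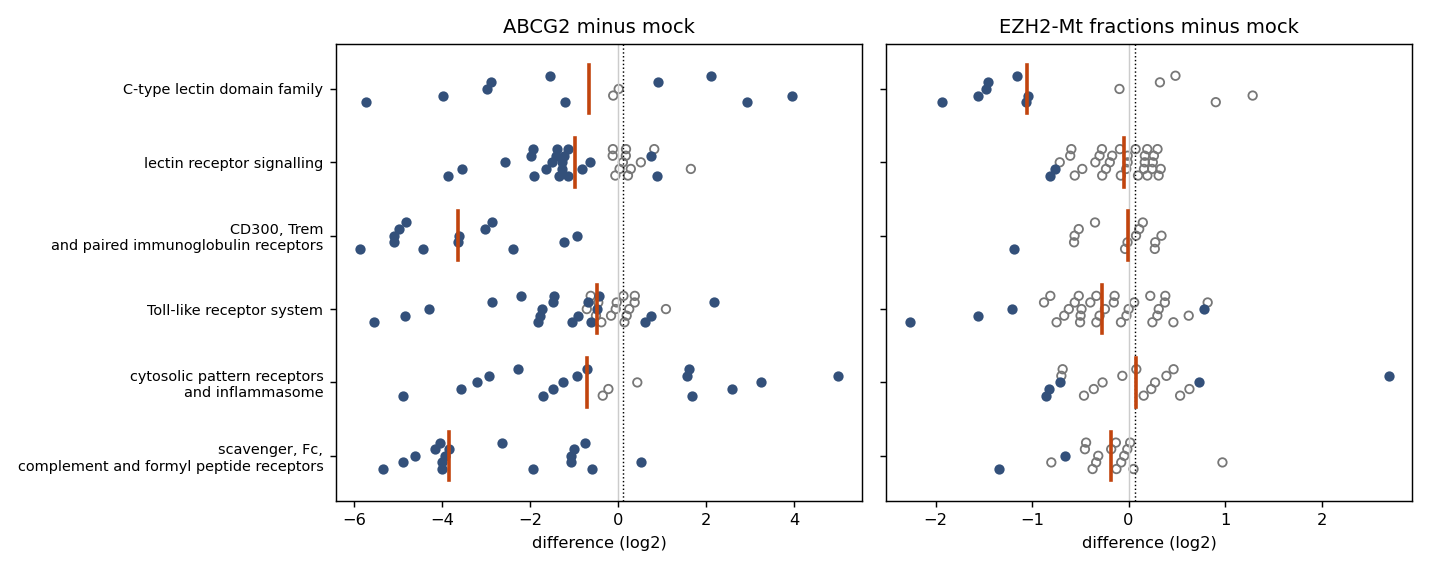
Difference in log2 (horizontal axis) of each probe set of the 6 pathway lists (vertical axis), for ABCG2 minus mock on the left and EZH2-Mt fractions minus mock on the right; filled points passed limma's adjusted p of 0.05, orange bars are list medians and the dotted line is the median of all probe sets (0.11 and 0.06). The immunoglobulin-type and scavenger lists have medians of -3.63 and -3.85 on the left and -0.01 and -0.18 on the right, and the C-type lectins have -0.66 and -1.06.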

How the data were processed

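The authors deposited centred log2 signals of 16309 probe sets on 7 Affymetrix Mouse430_2 arrays. Per the file headers, these are normalized values of probe sets with raw signal from 3 to 120534 and a Present or Marginal flag in 100% of samples, and the submitters' processing notes name MAS5. The scaling between arrays and the logarithm base are not given in the sources used here. The largest range of a probe set, 8.70, exceeds what the raw limits allow for base 10 (4.60) but not for natural logs (10.6), so base 2 is an assumption. In every probe set the median over arrays was 0.

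After 54 control probe sets were set apart, 16255 were fitted with limma 3.58.1 in R 4.3.3 (lmFit, eBayes, two-sided, Benjamini-Hochberg over all probe sets, threshold 0.05), for ABCG2 against mock and EZH2-Mt fractions against mock. A pathway or marker gene counts by its probe sets. The labels number no animals, so p-values measure the spread between arrays, whose number limits the precision.

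Members, lists and tests were chosen with earlier results of these data known. Named were all members, the 5 nearest genes by RMS and the nearest to each member, and per pathway list up to 4 genes with the largest ABCG2 and up to 2 with the largest EZH2-Mt difference past the threshold, plus all in counts of 5 or fewer. Genes named beyond this were chosen after their values were seen. They are Syk, Cd300lf, Ccr2, Irf8, Lyz2, Slc40a1, Vcam1, Csf1r and Adgre1, genes of other marker lists, the further lectins of EZH2-Mt marrow and second probe sets. Alternatives were quantile normalization, centring of arrays, array weights, all 7 arrays in 1 fit, gene means, the replicate block and leaving out each array. The gene annotation is GEO's platform table, and all 8 member probe sets matched RefSeq by gene ID.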

Additional observations from a re-analysis of the deposited data

Results flagged for a closer look

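Clec4a2 (1422013_at) went opposite ways in the transgene groups: both ABCG2 arrays lay below the mock mean (difference -6.54 log2) and both EZH2-Mt fractions above it (difference 0.124 log2). The EZH2-Mt difference is smaller than the spread of the mock arrays, 0.323 log2, and the difference between the transgene groups was not tested. No group holds the 4 arrays that a check for outlying arrays needs.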

How the results depend on the processing

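In the ABCG2 comparison all 24 named pathway genes kept direction and call in the 264 recomputed values, though not size (Pirb went from -5.09 to -2.54 log2 with quantile normalization). The member median of -5.91 log2 ran from -6.54 to -5.23 when 1 array was left out. Quantile normalization, which by construction gives the wider ABCG2 arrays the spread of the others, brought it to -3.72. It also gave 10 in place of 16 pathway probe sets higher and 4462 in place of 9234 calls over all. It lowered the share of higher calls among EZH2-Mt calls from 61.5% to 47.9%. Gene means, which test fewer features, gave 10 pathway genes higher, and 5179 (ABCG2) and 792 (EZH2-Mt) calls over all genes.

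In the EZH2-Mt comparison the 3 member calls became 5 with quantile normalization, 1 with all 7 arrays in the fit, and 1 to 6 when 1 array was left out. Leaving out 1 array gave 4 to 20 pathway calls in place of 21 (4 to 19 lower in place of 18, 0 to 2 higher in place of 3) and 147 to 2729 calls over all in place of 1530. The lowest came without mock replicate 3 and the highest over all without GFP-negative EZH2-Mt. Array weights gave 11 pathway calls (10 lower, 1 higher) and 912 over all. The causes were not tested. Member probe sets 1 log2 or more apart between fractions numbered 2 with quantile normalization.

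Correlations of same-numbered deviations were 0.0842 and -0.0435, which gave no sign that replicate numbers pair the arrays. The deviations of the 2 ABCG2 arrays mirror each other, so these are not separate checks and cannot show that the arrays are unpaired. With the replicate block the member median was -5.90 log2, with 88 pathway calls (75 lower, 13 higher) and 7726 over all. The fit without GFP-negative or GFP-positive EZH2-Mt assumes the lone array to vary as mock arrays do.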

Other observations

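A probe set annotated to both Clec4b1 and Clec4a2, and so not among the members, read 0, 0.05 and 0.15 in mock, 0.29 in GFP-negative, -0.01 in GFP-positive, and -5.75 and -6.95 in ABCG2 marrow. Its ABCG2 minus mock difference of -6.42 ± 0.33 log2 and its EZH2-Mt minus mock difference of 0.08 stood beside -6.54 and 0.12 for the single-symbol Clec4a2 probe set.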
